A study of Mus musculus with 9 samples.

Results

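The 9 genes described here are 8 members of the mouse Cyp3a family (Cyp3a11, Cyp3a13, Cyp3a16, Cyp3a25, Cyp3a41a, Cyp3a41b, Cyp3a44 and Cyp3a59) and Por, the gene of NADPH-cytochrome P450 reductase. They were taken by symbol from a count table of 55401 genes, and all 9 had a row. Livers came from 9 male mice in 3 groups of 3, and RNA of the left lobe was read with the QuantSeq 3' kit, which sequences the 3' end of polyadenylated transcripts. Chow mice received neither streptozotocin nor Atglistatin. STAM mice, a model of diabetes with steatohepatitis, were injected under the skin when 2 days old with streptozotocin (200 µg), and from the age of 4 weeks were fed a high-fat diet for 4 weeks. STAM + Atglistatin mice had the same injection, and their high-fat diet held Atglistatin, which blocks adipose triglyceride lipase. The labels name no strain, and STAM differs from chow in both streptozotocin and diet, so that their effects cannot be told apart. Mice are named by the numbers in the sample titles: 7 to 9 for chow, 1 to 3 for STAM and 4 to 6 for STAM + Atglistatin.

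Cyp3a enzymes are P450 monooxygenases of the endoplasmic reticulum of hepatocytes, where they oxidise steroids, bile acids and many drugs. They receive their electrons from NADPH through Por, which also serves the other microsomal P450 enzymes, squalene epoxidase and heme oxygenase. Cyp3a11 is the classical mouse gene switched on by the xenobiotic receptor PXR (Nr1i2), Cyp3a13 is also well known from the intestine, and Cyp3a16, Cyp3a41a, Cyp3a41b and Cyp3a44 are known as genes of fetal or female liver.

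In units of 1e6 counts, the smallest library held 7.41 and the biggest 9.91 (mean 8.85). Values below are CPM, counts per 1e6 with TMM-adjusted library sizes. Because the kit reads 1 end of each transcript, counts were not divided by gene length, and levels of different genes are compared only as counts of 3' reads. Changes are given as log2 fold changes with their SE as fitted by edgeR (quasi-likelihood test), and a gene passed at a Benjamini-Hochberg adjusted p under 0.05 over the 12660 tested genes. The hepatocyte markers were abundant in every library, with a summed level of 83605 to 94330 CPM in chow, 43529 to 50736 in STAM and 66454 to 66835 in STAM + Atglistatin. Of the 6 genes of that list, Alb, Apoa1 and Ttr fell in STAM and Alb, Apoa1 and Cps1 in STAM + Atglistatin, both against chow, while Alb rose in STAM + Atglistatin against STAM. Among 10 pericentral hepatocyte markers, Oat and Slc1a2 rose in STAM against chow and fell in STAM + Atglistatin against STAM, and Cyp1a2 fell and then rose in these comparisons and was higher in STAM + Atglistatin than in chow. Of 8 periportal markers, Cyp2f2, Hal and Sds fell in STAM + Atglistatin against chow and Sds also against STAM. The endothelial marker Lyve1 rose in STAM against chow. The part that these marker changes play in the results below was not tested. Of the 4 intestinal markers, Cdh17 and Cdx2 were at 0 in all 9 libraries, and the list summed to 3.25 to 3.91 CPM for chow, 5.43 to 10.3 for STAM and 5.73 to 6.92 for STAM + Atglistatin. Most of this was Lgals4, with means of 3.28 CPM for chow, 8.04 for STAM and 6.22 for STAM + Atglistatin, no overlap between chow and either other group, and no call (edgeR adjusted p = 0.0516 for STAM against chow). Its part in the Cyp3a levels was not tested. Among the chow libraries replicate 7 was unlike the rest: its pericentral hepatocyte markers summed to 4368 CPM against 7766 and 6790, and its recruited macrophage markers to 20.6 CPM against 3.13 and 4.58. Its stellate cell markers summed to 605 CPM against 407 and 418, and its cholangiocyte markers to 68.0 CPM against 42.9 and 44.8. Its adipocyte markers summed to 4.22 CPM against 0 and 0.739, while its endothelial markers, at 259 CPM, lay between 257 and 277. In bulk tissue, fewer cells of a type and less RNA per cell cannot be told apart.

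All 9 genes lie on chromosome 5 (GRCm38 coordinates, GENCODE M21). Por spans chr5:135670033-135735326 on the plus strand and Cyp3a13 spans chr5:137892932-137921619 on the minus strand. The other 7 genes form a cluster between chr5:145436309 and chr5:146113287, in the order Cyp3a16, Cyp3a41b, Cyp3a41a, Cyp3a44, Cyp3a11, Cyp3a25 and Cyp3a59. Of these 7, Cyp3a59 is the one on the plus strand. The 180 bases upstream of the RefSeq start (GRCm38.p6) of 6 cluster genes follow, since these neighbours range from the Cyp3a gene with the most counts to genes with no counts. Capitals mark the HNF4 element CAAAGTCCA and the nuclear receptor half-sites AGGTCA and AGTTCA, on either strand.
Cyp3a11: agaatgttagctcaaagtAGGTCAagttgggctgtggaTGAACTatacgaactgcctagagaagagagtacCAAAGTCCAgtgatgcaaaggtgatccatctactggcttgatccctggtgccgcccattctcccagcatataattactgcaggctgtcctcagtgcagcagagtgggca
Cyp3a16: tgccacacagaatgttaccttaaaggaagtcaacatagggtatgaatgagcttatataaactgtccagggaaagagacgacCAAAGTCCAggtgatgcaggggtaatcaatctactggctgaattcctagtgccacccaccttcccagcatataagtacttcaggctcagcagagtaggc
Cyp3a41a: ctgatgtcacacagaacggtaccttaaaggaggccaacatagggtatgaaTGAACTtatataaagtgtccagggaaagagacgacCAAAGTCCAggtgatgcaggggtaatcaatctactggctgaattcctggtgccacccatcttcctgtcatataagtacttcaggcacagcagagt
Cyp3a44: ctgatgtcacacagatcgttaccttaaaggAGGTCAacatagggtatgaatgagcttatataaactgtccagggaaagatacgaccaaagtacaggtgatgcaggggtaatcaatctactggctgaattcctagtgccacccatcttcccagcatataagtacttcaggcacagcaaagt
Cyp3a25: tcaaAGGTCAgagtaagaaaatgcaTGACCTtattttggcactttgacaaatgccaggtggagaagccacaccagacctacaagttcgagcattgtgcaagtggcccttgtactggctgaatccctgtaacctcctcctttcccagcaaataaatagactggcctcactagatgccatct
Cyp3a59: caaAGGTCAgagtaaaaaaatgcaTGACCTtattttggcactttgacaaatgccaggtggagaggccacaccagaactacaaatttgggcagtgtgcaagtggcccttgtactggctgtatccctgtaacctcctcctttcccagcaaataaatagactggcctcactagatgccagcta

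The stretches are chr5:145879855-145880034 (Cyp3a11), chr5:145469724-145469903 (Cyp3a16), chr5:145720137-145720316 (Cyp3a41a), chr5:145805875-145806054 (Cyp3a44) and chr5:146009619-146009798 (Cyp3a25), all on the minus strand, and chr5:146079078-146079257 (Cyp3a59) on the plus strand. The GENCODE M21 span of Cyp3a11 reaches chr5:145879964, so its RefSeq start and part of its stretch, with the element CAAAGTCCA, lie inside that span. The RefSeq start of Por, whose window is not printed, also lies inside its GENCODE span. Counted from the RefSeq start, the element CAAAGTCCA begins 109 bases before it in Cyp3a11 (position -109), at -99 in Cyp3a16 and at -95 in both Cyp3a41 genes. It was found in 126 of 32851 RefSeq promoter windows of 250 bases (0.384%). The 4 members that carry it are among these windows, and their promoters resemble each other, so they are not independent cases. The promoter of Cyp3a41a was 99.6% identical to that of Cyp3a41b and 93.2% to that of Cyp3a16. At -95 Cyp3a44 carries the element with C7A, counted from the element's first base. Cyp3a25 and Cyp3a59 hold AGGTCA on both strands and lack CAAAGTCCA, and their promoters were 95.6% identical over 249 aligned bases. AGGTCA occurred in 14.0% of all such windows and AGTTCA in 11.8%. The growth hormone-linked STAT5 motif TTCNNNGAA, present in 7.02% of windows, was in none of the 9 genes' windows. The promoter of Cyp3a11 was 77.5% identical to that of Cyp3a16, which had 0 counts. A match of letters is a description of the window and shows no binding.

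The 9 genes fell into 3 that were never counted, 1 that was barely counted and 5 with enough counts to test. Cyp3a16, Cyp3a41a and Cyp3a41b had 0 counts in all 9 libraries. At 3 counts over all libraries, this allows up to 0.0377 CPM of reads that can be assigned to a single gene. The limit does not cover reads left out because they fit several genes, so it does not bound the RNA level of Cyp3a41a or Cyp3a41b. Nor does it cover reads from beyond the annotated end of a transcript. The annotated transcript of Cyp3a16 has 1730 bases, against 2060 for Cyp3a41a and 2344 for Cyp3a11, and whether its end is complete was not tested. Cyp3a44 had 0 counts in every chow library, 2 in STAM replicate 1 and none in STAM replicates 2 and 3. In STAM + Atglistatin it had 7, 3 and 2 counts in replicates 4, 5 and 6. With counts pooled over mice, the level over the STAM + Atglistatin group was 5.37 times that over STAM, with a 95% counting interval of 1.20 to 49.4. It was 3.43 times a floor of 3 counts over the chow group. That ratio is no lower bound, since it takes the 12 STAM + Atglistatin counts as exact. Cyp3a44 did not pass the low-count filter, and with no filter its edgeR adjusted p was 0.734, 0.831 and 0.507 for STAM against chow, STAM + Atglistatin against STAM and STAM + Atglistatin against chow. The counting interval covers counting error only, and neither it nor the floors cover the spread between mice.

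How far a 3' read can be assigned differs among these copies. In the last 300 bases of the transcript, every one of 251 windows of 50 bases of Cyp3a41a was also in Cyp3a41b, and the reverse held. The Cyp3a41a and Cyp3a41b transcripts differ at 6 of 2064 aligned positions, none of them in those last 300 bases. For these copies, absent RNA and reads left out because they fit both genes cannot be told apart. Cyp3a44 shared 58 windows (23.1%), 54 of them with the pseudogene Cyp3a63-ps, which itself had 14 counts, 10 of them in STAM + Atglistatin replicate 5. Cyp3a16 shared 12 windows (4.78%), all with Cyp3a11, and in its last 500 bases 88 of 451 windows (19.5%) were shared. The part that shared reads play in its count of 0 was not tested. Cyp3a11 shared 2 windows (0.797%), and Cyp3a13, Cyp3a25, Cyp3a59 and Por shared none. Over all protein-coding genes, 13.6% of 828 genes with every window shared had a count, against 44.9% of 2424 with some shared and 75.8% of 18463 with none shared. These classes may also differ in expression in liver, and the part that sharing plays was not tested. The remaining rows of the table named Cyp3a, Cyp3a57 and Cyp3a61-ps1, had 0 counts.

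**Figure D1:**
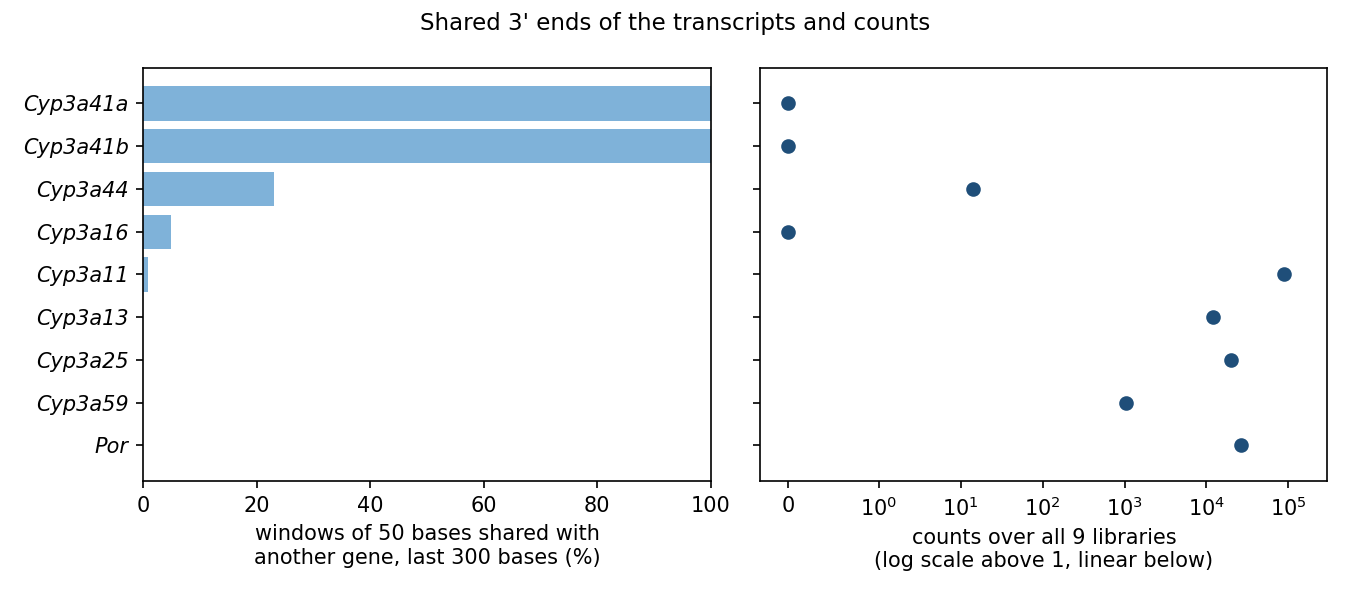
Left, percent of windows of 50 bases in the last 300 bases of each transcript that another gene also holds; right, counts over all 9 libraries on an axis that is logarithmic above 1. Cyp3a41a and Cyp3a41b are shared throughout and at 0, Cyp3a16 is at 0 with 4.78% shared, and the 5 tested genes share at most 0.797%.

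STAM against chow asks how the diabetic, high-fat-fed liver differs from the healthy one. Por and Cyp3a11 rose in STAM: Por from 170.2 ± 11.7 to 361 ± 36.3 CPM and Cyp3a11 from 621 ± 264 to 1115 ± 76.2 CPM (mean ± SD, n = 3 mice each). Of the 5 tested genes, 2 passed higher and 0 passed lower, where over all tested genes 1.95% passed higher and 1.99% lower. In 3 of the 5 every STAM library lay above every chow library, as in 10.6% of all tested genes. The median log2 fold change of the 5 was 0.72, beside 0.00 over all tested genes.

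Por, the electron donor, stood at 168, 183 and 159 CPM in chow replicates 7, 8 and 9 and at 321, 369 and 392 CPM in STAM replicates 1, 2 and 3. The groups were far from overlapping, and the spread within each was small. The log2 fold change was 1.08 ± 0.13, a 2.12-fold rise (95% interval 1.76 to 2.56; edgeR adjusted p = 4.12e-05). The intervals of fold changes come from the edgeR fit and include the spread between mice. It passed in all 12 alternatives, with log2 fold changes of 1.02 to 1.17.

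Cyp3a11, the most abundant of the family by 3' counts, stood at 917, 534 and 411 CPM in the chow mice and at 1061, 1082 and 1202 CPM in the STAM mice. The chow mice were spread widely, with replicate 7 the highest, while the STAM mice were close together, and the groups did not overlap. The log2 fold change was 0.84 ± 0.20 (1.80-fold, 95% interval 1.34 to 2.41; edgeR adjusted p = 0.0223). This call was not stable. It was lost, with edgeR adjusted p, without chow replicate 8 (0.110), chow replicate 9 (0.0907), STAM replicate 1 (0.0631), STAM replicate 2 (0.0634) and STAM replicate 3 (0.0892), where the log2 fold changes were 0.75, 0.62, 0.88, 0.87 and 0.79. It was also lost in the DESeq2 test (adjusted p = 0.0882) and in an edgeR fit to the 2 groups alone (adjusted p = 0.0521). Without chow replicate 7 the log2 fold change was 1.24 (edgeR adjusted p = 2.19e-06). The part that the cell type marker levels of that mouse play was not tested. In the authors' deposited table the log2 fold change of chow against STAM was -0.67 for Cyp3a11 (adjusted p = 0.0913).

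Cyp3a25 stood at 168, 219 and 165 CPM in chow and at 246, 249 and 261 CPM in STAM, again with no overlap. Its log2 fold change of 0.45 ± 0.13 fell short of the threshold (edgeR adjusted p = 0.0635). It passed with library totals (adjusted p = 0.0160), with no low-count filter (0.0282), in DESeq2 (0.0178), in limma-voom (0.0209) and in edgeR without chow replicate 8 (0.0208, log2 fold change 0.60). The authors' deposited table gives chow against STAM as -0.43 for Cyp3a25 (adjusted p = 0.0169).

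Cyp3a59, the near relative of Cyp3a25 (97.0% identical transcripts), was the least abundant of the tested genes, at 9.06, 7.47 and 4.88 CPM in chow and 8.51, 12.9 and 14.3 CPM in STAM. The groups overlapped, and the log2 fold change was 0.72 ± 0.33 (edgeR adjusted p = 0.325). Cyp3a13 stood at 145, 133 and 129 CPM in chow and 119, 145 and 161 CPM in STAM. Its STAM values surrounded the chow values, with a log2 change of 0.06 ± 0.15 (95% interval -0.25 to 0.37; edgeR adjusted p = 0.917).

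**Figure D2:**
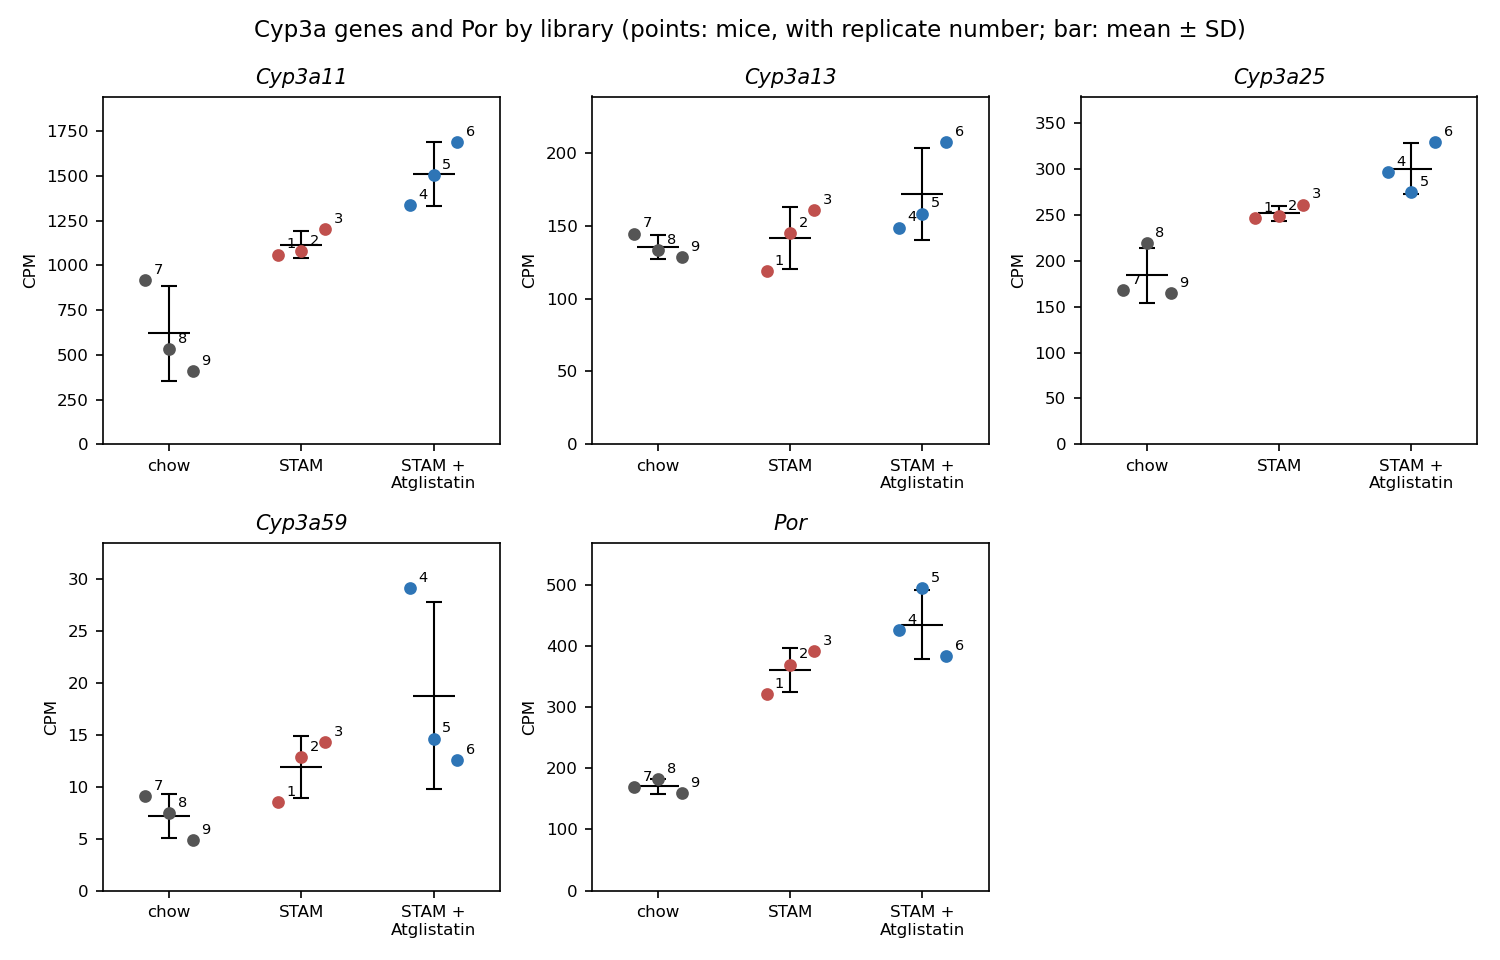
CPM of the 5 tested genes in each mouse, by group; points are mice with their replicate numbers and bars are mean ± SD of 3 mice. Por separates chow (159 to 183 CPM) from both other groups, Cyp3a11 lies at 411 to 917 CPM in chow and at 1061 CPM or more in the other mice, and Cyp3a13 overlaps between chow and STAM.

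STAM + Atglistatin against STAM asks what the lipase inhibitor added to the diet changed. No member passed: 0 of 5 in either direction, where over all tested genes 1.04% passed higher and 0.742% lower. All 5 log2 fold changes were above 0, with a median of 0.28, and 2 of the 5 had an unadjusted edgeR p under 0.05, as had 1285 of the 12660 genes in this comparison. In 2 of the 5, Cyp3a11 and Cyp3a25, every STAM + Atglistatin library lay above every STAM library, as in 8.58% of all tested genes.

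Cyp3a11 stood at 1337, 1506 and 1691 CPM in replicates 4, 5 and 6 of STAM + Atglistatin, a mean of 1511 ± 177. All 3 were above the highest STAM mouse, at 1202 CPM. The log2 fold change against STAM was 0.44 ± 0.20 (1.36-fold, 95% interval 1.01 to 1.82; edgeR adjusted p = 0.461). It passed when genes with low counts were kept in the test (edgeR adjusted p = 0.0365) and in an edgeR fit to the 2 groups alone (0.0443), and its adjusted p lay between 0.0365 and 0.786 over the 12 alternatives.

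Por stood at 426, 494 and 383 CPM in STAM + Atglistatin, a mean of 434 ± 56.2. Replicate 6 was below STAM replicate 3, so that the groups overlapped (log2 fold change 0.27 ± 0.13, edgeR adjusted p = 0.485). Cyp3a25 stood at 297, 275 and 330 CPM, a mean of 300.5 ± 27.5, above all 3 STAM mice by 0.25 ± 0.13 on the log2 scale (edgeR adjusted p = 0.552). The 95% intervals of the log2 fold change, 0.00 to 0.53 for Por and -0.02 to 0.53 for Cyp3a25, bound what these mice allow.

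Cyp3a13 stood at 149, 158 and 208 CPM and overlapped the STAM values (log2 fold change 0.28 ± 0.15, edgeR adjusted p = 0.566). Cyp3a59 stood at 29.1, 14.6 and 12.5 CPM. Replicate 4 was far above the other mice, and replicate 6 was within the STAM range (log2 fold change 0.66 ± 0.32, edgeR adjusted p = 0.505). Without that replicate Cyp3a59 differed by 0.19 on the log2 scale (edgeR adjusted p = 0.941).

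STAM + Atglistatin against chow sets the treated diabetic mice beside the healthy ones, and it shares its libraries with both comparisons above. Here 4 of the 5 tested genes passed higher (Por, Cyp3a11, Cyp3a25 and Cyp3a59) and 0 passed lower, where over all tested genes 2.10% passed higher and 1.97% lower. Every STAM + Atglistatin library lay above every chow library in 5 of 5, as in 9.60% of all tested genes. The median log2 fold change of the 5 was 1.28.

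Por was 2.55-fold higher than in chow (95% interval 2.11 to 3.08; log2 fold change 1.35 ± 0.13, edgeR adjusted p = 3.08e-06). Cyp3a11 was 2.43-fold higher (interval 1.81 to 3.28; log2 fold change 1.28 ± 0.20, edgeR adjusted p = 0.000882), and the lowest treated mouse, at 1337 CPM, was above the highest chow mouse, at 917. Cyp3a25 was 1.63-fold higher (interval 1.35 to 1.97; log2 fold change 0.71 ± 0.13, edgeR adjusted p = 0.00315). All 3 genes passed in each of the 12 alternatives, so the difference did not rest on 1 library.

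Cyp3a59 was 2.60-fold higher (interval 1.61 to 4.21; log2 fold change 1.38 ± 0.33, edgeR adjusted p = 0.0209), but the call leaned on single libraries. Without STAM + Atglistatin replicate 4 the log2 fold change of Cyp3a59 was 0.91 (edgeR adjusted p = 0.174), without chow replicate 8 it was 1.41 (0.0650) and without chow replicate 9 it was 1.18 (0.103). Cyp3a13 did not pass, with a log2 change of 0.34 ± 0.15 (interval 0.03 to 0.65; edgeR adjusted p = 0.277). In the authors' deposited table the log2 fold changes of STAM + Atglistatin against chow were 1.29 for Por, 1.01 for Cyp3a11, 0.67 for Cyp3a25, 1.01 for Cyp3a59 and 0.32 for Cyp3a13, of which Cyp3a13 alone missed an adjusted p of 0.05 (0.269). For Cyp3a44 the deposited value was 0.20, against 4.91 in edgeR with no low-count filter. Sizes of deposited and edgeR fold changes, here and above, are therefore not compared.

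**Figure D3:**
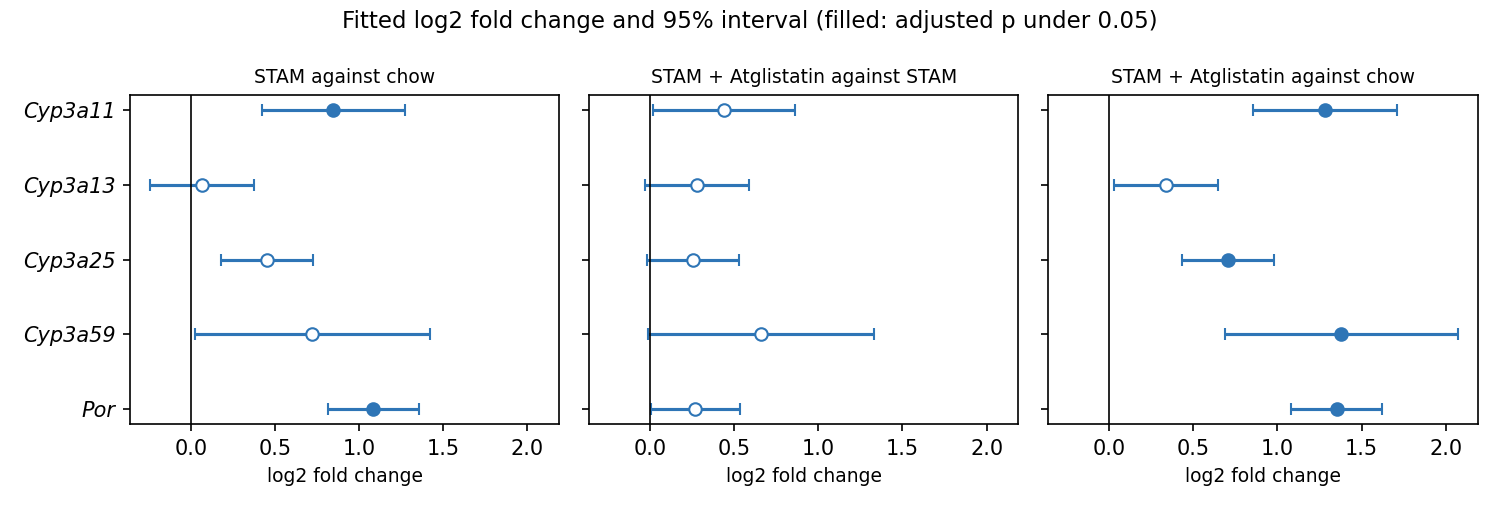
Fitted log2 fold change of each tested gene in the 3 comparisons; bars are 95% intervals and filled points passed an edgeR adjusted p of 0.05. Por and Cyp3a11 are filled in both comparisons with chow, no gene is filled for STAM + Atglistatin against STAM, and Cyp3a13 is open throughout.

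In every library Cyp3a11 made up most of the Cyp3a counts, so that its share is tied to its own level. Its share of all Cyp3a counts was 74.0, 59.7 and 57.9% in chow replicates 7, 8 and 9, 72.7 to 73.9% in STAM and 73.8 to 77.1% in STAM + Atglistatin. Chow replicate 7 thus had the share of a STAM mouse, while the other chow mice were lower. Cyp3a11 had 6.34, 4.00 and 3.19 counts per count of Cyp3a13 in the chow mice, 7.48 to 8.91 in STAM and 8.15 to 9.51 in STAM + Atglistatin, so that all 6 diabetic mice were above all 3 chow mice. Cyp3a counts per count of Por, a ratio of enzyme transcripts to electron donor transcripts, were 7.35, 4.90 and 4.45 in chow, 4.03 to 4.48 in STAM and 3.95 to 5.86 in STAM + Atglistatin, with overlap between all groups. The share of Cyp3a59 was at most 1.61% in any library. These ratios were not tested.

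**Figure D4:**
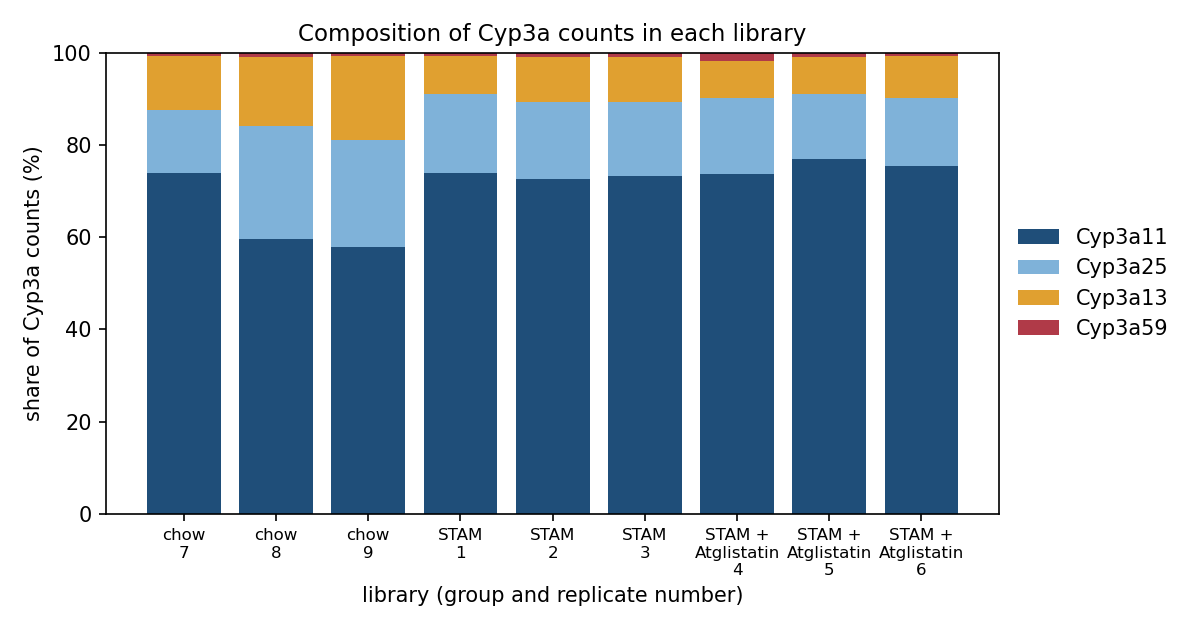
Share of Cyp3a counts (%) taken by Cyp3a11, Cyp3a25, Cyp3a13 and Cyp3a59 in each library, by group and replicate number. Cyp3a11 takes 57.9 to 59.7% in chow replicates 8 and 9 and 72.7 to 77.1% in the 6 diabetic mice, with chow replicate 7 at 74.0%.

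The receptors that control Cyp3a genes showed 1 change. Of 14 tested genes in a list of PXR, CAR and liver factors, 1 rose and 0 fell in STAM against chow, 0 changed in STAM + Atglistatin against STAM, and 1 rose in STAM + Atglistatin against chow. In both cases it was Nr1i3, the gene of CAR, a receptor that activates Cyp2b and Cyp3a genes. It stood at 47.1, 89.1 and 69.0 CPM in chow, 109, 100.2 and 172 CPM in STAM, and 143, 155 and 128 CPM in STAM + Atglistatin, with no chow mouse reaching the other groups. The log2 fold change of Nr1i3 was 0.89 ± 0.21 in STAM (edgeR adjusted p = 0.0209) and 1.05 ± 0.21 in STAM + Atglistatin (0.00640), both against chow. The first call was lost without chow replicate 9 (edgeR adjusted p = 0.0622, log2 fold change 0.90) or STAM replicate 3 (0.155, 0.62) and in a fit to the 2 groups alone (0.0502). Nr1i2, the gene of PXR, went from 75.03 to 87.8 CPM in chow to 102 to 120 CPM in STAM and 98.8 to 114 CPM in STAM + Atglistatin, and its log2 fold change of 0.44 ± 0.13 in STAM did not pass (edgeR adjusted p = 0.0663). It passed with library totals (0.0148) and in DESeq2 (0.0285).

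Other targets of PXR and CAR did not move as a block with Cyp3a11. Of 14 tested, 1 rose (Abcb1a) and 4 fell (Cyp2b10, Cyp2c29, Ces2a and Gstm1) in STAM against chow. In STAM + Atglistatin against STAM 3 rose (Cyp2b10, Cyp2c29 and Gstm1) and 0 fell. In STAM + Atglistatin against chow 3 rose (Abcb1a, Slco1a4 and Aldh1a1) and 3 fell (Cyp2b10, Cyp2c29 and Ces2a). The list's median log2 fold changes were -0.01, 0.21 and 0.06. Cyp2b10, the classical CAR target, stood at 32.7, 25.7 and 23.9 CPM in chow, 1.11, 1.89 and 4.93 CPM in STAM, and 9.53, 7.98 and 6.59 CPM in STAM + Atglistatin. In STAM it fell by 3.38 ± 0.38 on the log2 scale (edgeR adjusted p = 1.89e-05), while Cyp3a11 in the same mice was higher than in chow. Without STAM replicate 3 the log2 fold change of Cyp2b10 was -4.19 in STAM against chow, and 2.42 in place of 1.61 in STAM + Atglistatin against STAM. Cyp2c29, a P450 of the Cyp2c family, had a log2 fold change of -2.78 ± 0.21 in STAM (edgeR adjusted p = 1.75e-07), and Gstm1, a glutathione transferase, one of -0.996 ± 0.158 (0.000785). Abcb1a, a drug efflux pump, was higher in STAM + Atglistatin than in chow by 2.45 ± 0.34 on the log2 scale (edgeR adjusted p = 0.000261), at 14.3 ± 2.89 against 2.56 ± 0.94 CPM. When 1 library was left out in turn, edgeR adjusted p reached 0.164 for Abcb1a and 0.151 for Ces2a in STAM, 0.198 for Cyp2b10 in STAM + Atglistatin against STAM, and 0.174 for Ces2a, 0.195 for Slco1a4 and 0.146 for Aldh1a1 in STAM + Atglistatin against chow, so that these 6 calls were lost without at least 1 library.

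A list of genes linked to electron transfer to P450 beside Por held Cyb5a, Cyb5b, Cyb5r3, Pgrmc1, Pgrmc2, Fdx1 and Fdxr. In STAM 2 of them fell while Por rose, and Cyb5a had a log2 fold change of 0.42 that did not pass (edgeR adjusted p = 0.117). Of 7 tested, 0 rose and 2 fell (Cyb5b and Cyb5r3) in STAM against chow, 1 rose (Cyb5b) and 0 fell in STAM + Atglistatin against STAM, and 1 rose (Cyb5a) and 0 fell in STAM + Atglistatin against chow. Cyb5r3, cytochrome b5 reductase, stood at 457, 530 and 513 CPM in chow and 255, 279 and 333 CPM in STAM. It fell by 0.79 ± 0.15 on the log2 scale (edgeR adjusted p = 0.00388), with no overlap between the groups. Cyb5b, the outer mitochondrial membrane form of cytochrome b5, stood at 325, 409 and 418 CPM in chow, 198, 180 and 235 CPM in STAM, and 291, 324 and 291 CPM in STAM + Atglistatin. In STAM it fell by 0.91 ± 0.13 (edgeR adjusted p = 0.000377) and rose in STAM + Atglistatin against STAM by 0.56 ± 0.13 (0.0346). That rise did not pass in edgeR without STAM + Atglistatin replicate 4 (adjusted p = 0.0941), 5 (0.171) or 6 (0.0657), or without STAM replicate 1 (0.202) or 2 (0.238). Cyb5a, the microsomal form of cytochrome b5, a known partner of Cyp3a enzymes, was higher in STAM + Atglistatin than in chow (1645 ± 203 against 1126 ± 109 CPM; log2 fold change 0.55 ± 0.14, edgeR adjusted p = 0.0296). This call did not pass in edgeR without STAM + Atglistatin replicate 4 (adjusted p = 0.165) or 5 (0.0756), or chow replicate 8 (0.0561) or 9 (0.0785). In the same comparison the log2 difference for Cyb5r3 was -0.49, short of the threshold (edgeR adjusted p = 0.0830), and it passed lower with no low-count filter (0.00831), in DESeq2 (0.0304), in limma-voom (0.0330) and in edgeR without STAM + Atglistatin replicate 5 (0.0479) or chow replicate 7 (0.0320). Cyb5b passed lower there without chow replicate 7 (edgeR adjusted p = 0.0367, against 0.205 with it). Cyb5a passed higher in STAM against chow with library totals (adjusted p = 0.0180) and with no low-count filter (0.0272), against 0.117 in the edgeR test as reported.

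Every P450 carries heme. Of 12 tested genes of heme synthesis and breakdown, 1 rose (Alas1) and 0 fell in STAM against chow, 1 rose (Blvrb) and 0 fell in STAM + Atglistatin against STAM, and 2 rose (both of these) and 0 fell in STAM + Atglistatin against chow. Alas1, the rate-limiting enzyme of heme synthesis in liver, stood at 323, 384 and 344 CPM in chow, 660, 472 and 726 CPM in STAM, and 621, 651 and 849 CPM in STAM + Atglistatin. No chow mouse reached either other group. Alas1 rose by 0.82 ± 0.16 on the log2 scale in STAM (edgeR adjusted p = 0.00398) and by 1.01 ± 0.16 in STAM + Atglistatin (0.000704), both against chow, and passed in all alternatives. Blvrb, biliverdin reductase B, was higher in STAM + Atglistatin than in chow by 0.96 ± 0.13 (edgeR adjusted p = 0.000261), at 262 against 135 CPM. Its rise over STAM was lost without STAM + Atglistatin replicate 5 (edgeR adjusted p = 0.0828) or 6 (0.0766), or STAM replicate 1 (0.0950) or 2 (0.163).

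**Figure D5:**
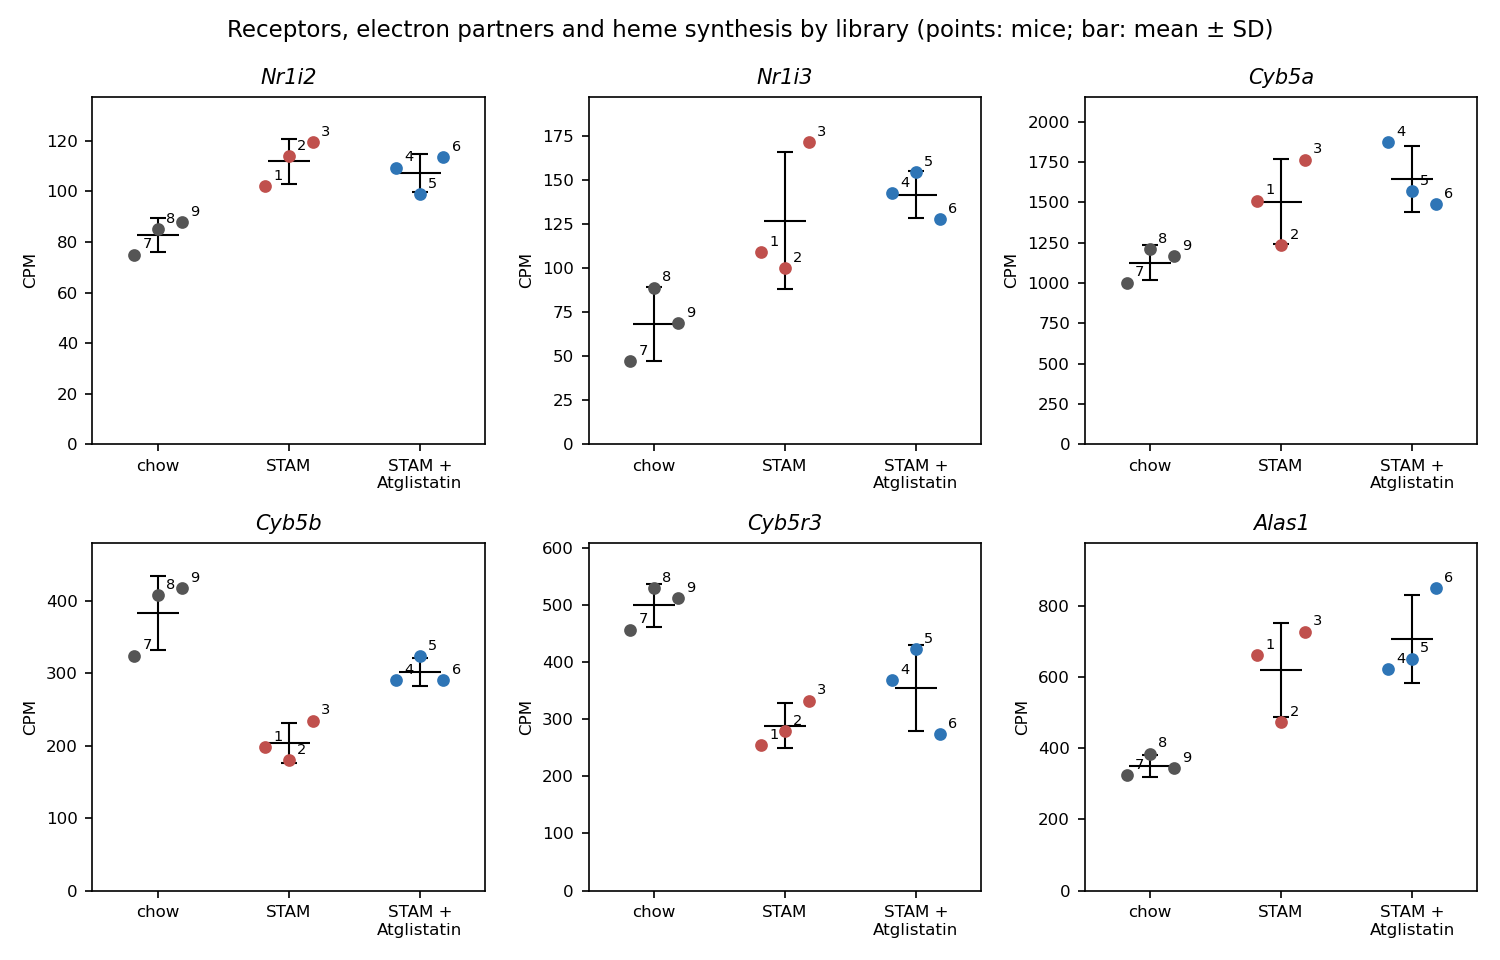
CPM of 2 receptors (Nr1i2, Nr1i3), 3 electron carriers (Cyb5a, Cyb5b, Cyb5r3) and the heme synthesis gene Alas1 in each mouse, by group; points are mice with replicate numbers and bars are mean ± SD of 3 mice. Alas1 is at 323 to 384 CPM in chow and 472 to 849 CPM in the other groups, while Cyb5r3 is lowest in STAM at 255 to 333 CPM, where STAM + Atglistatin overlaps it.

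The other enzymes that draw on Por changed in both directions. Of 16 tested, 3 rose (Cyp2a5, Cyp4a10 and Cyp4a14) and 7 fell in STAM against chow. In STAM + Atglistatin against STAM 8 rose and 2 fell (Cyp2d9 and Cyp8b1, the latter with an edgeR adjusted p of up to 0.230 when 1 library was left out). In STAM + Atglistatin against chow 4 rose (the same 3 with Cyp1a2) and 8 fell, of which Sqle lost its call without STAM + Atglistatin replicate 5 (edgeR adjusted p = 0.0629). Their median log2 fold changes were -0.33, 0.72 and -0.48, while Por was higher than in chow in both diabetic groups. Cyp51, lanosterol demethylase, had a log2 fold change of -3.02 ± 0.16 in STAM (edgeR adjusted p = 5.00e-09) and Sqle, squalene epoxidase, one of -4.15 ± 0.31 (1.73e-07). Cyp4a10, a fatty acid omega-hydroxylase, rose in STAM by 2.20 ± 0.22 (edgeR adjusted p = 4.51e-06). In STAM + Atglistatin against STAM, Cyp1a2 rose by 1.72 ± 0.17 (edgeR adjusted p = 5.61e-06) and Cyp2a5 by 1.22 ± 0.13 (2.41e-05).

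The 4 Cyp3a members with 0 or few counts are known from fetal or female liver. A list of liver genes known as higher in males was therefore read beside them. Of 15 tested, 0 rose in any comparison, while 6 fell in STAM against chow, 13 in STAM + Atglistatin against STAM and 15 in STAM + Atglistatin against chow. Over all tested genes 1.99%, 0.742% and 1.97% passed lower in these comparisons. This list was chosen with earlier results of these data known, and its link to the Cyp3a genes was not tested. Of the 4 Cyp3a genes known from female or fetal liver, Cyp3a44 alone had counts, 12 of its 14 in STAM + Atglistatin, and it was not kept by the low-count filter. Of 5 sex markers (Xist, Ddx3y, Eif2s3y, Kdm5d and Uty), Xist was at 0 in all chow and STAM libraries. In STAM + Atglistatin replicate 4, which held 7 of the Cyp3a44 counts, 0 of these markers were at 0. They summed to 145 CPM there, against 145 and 153 CPM in replicates 5 and 6. The part that this plays in the Cyp3a44 counts was not tested. For Cyp3a41a and Cyp3a41b, absent RNA and left-out shared reads cannot be told apart.

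The 5 tested genes followed each other to different degrees across the 9 libraries. Pearson's r of log2 CPM between members was 0.89 for Cyp3a25 with Por and 0.87 for Cyp3a11 with Por, and lowest for Cyp3a13 with Cyp3a59, at 0.46. These values describe libraries of 3 groups with different means. Among 7789 other genes with a mean log2 CPM of at least 3, the 3 most like Por were Ednrb (r = 0.989), Mgmt (0.977) and Nmrk1 (0.972). Mgmt, a DNA repair methyltransferase, stood at 26.4 ± 0.90, 48.3 ± 0.64 and 62.9 ± 4.21 CPM in chow, STAM and STAM + Atglistatin, against 170.2, 361 and 434 CPM for Por. Those most like Cyp3a11 were Ifi27l2b (r = 0.968), Cyp2a4 (0.958) and Acot2 (0.956), and in all 3 a single chow mouse was high. Acot2, a mitochondrial acyl-CoA thioesterase, reached 76.8 CPM in its highest chow mouse and 16.5 CPM in its lowest. Those most like Cyp3a25 were Pctp (0.974), Hsdl2 (0.960) and Acot1 (0.957), those most like Cyp3a59 were Polr2a (0.948), Snhg15 (0.938) and Exosc10 (0.936), and those most like Cyp3a13 were Trim24 (0.935), Lrrc42 (0.901) and Rpp25l (0.898).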

How the data were processed

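Liver RNA of 9 male mice was measured with QuantSeq, a 3' end method. Groups and replicate numbers were taken from the sample titles, since for chow and STAM the treatment label goes against titles and design text. Per the submitters' processing notes, the authors used STAR and GRCm38. Not given in the sources used here are the counting tool, strand, read length and handling of reads that fit several genes. In the deposited table are the authors' raw counts per gene and library. Its group sums of counts, deposited by the authors, equalled the library sums in all genes. It also holds the authors' mean scaled counts, a signal that was not used, their log2 fold changes, and their p-values and adjusted p-values.

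Of 55401 genes, 20630 had a count. The 7 rows of ribosomal RNA, 0.260 to 0.529% of counts, were left out. The test used edgeR 4.0.16 in R 4.3.3 (TMM, filterByExpr, 1 quasi-likelihood fit to all 9 libraries, Benjamini-Hochberg over 12660 genes). The common biological coefficient of variation was 0.236. The procedure was tested on simulated data. Alternatives were DESeq2 size factors, library totals, DESeq2 1.42.0, limma-voom (limma 3.58.1), no filter on low counts, a fit to the 2 groups compared, and leaving out each library. Their use on genes of the lists was added after the data were seen. Labels do not say more on how the mice were housed or paired, so a housing difference between groups could not be told apart from a group difference. The edgeR p-values set a group difference against the spread between mice as fitted to all 9 libraries. Positions and transcripts are from GENCODE M21, and promoters from RefSeq GRCm38.p6, where all 9 genes matched.

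The 9 genes and the lists were chosen with earlier results of these data known. Named genes were the 9 members, other rows named Cyp3a, for each tested member the 3 genes with the highest Pearson correlation over 9 libraries (log2 CPM, prior count 2, mean at least 3), and up to 4 genes per list with the smallest p, plus genes that a member's result turns on. Genes behind a count of 5 or fewer were also named, and those outside the rule were chosen after their values were seen. A further gene list that was planned is not reported here.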

Additional observations from a re-analysis of the deposited data

How the results depend on the processing

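Over the members, 162 of 180 log2 fold changes under an alternative kept their direction and their side of the threshold, 10 lost the call, 7 gained one and 1 reversed: Cyp3a13 in STAM against chow, called in no alternative, ranged from -0.039 (without STAM replicate 3) to 0.17 (without STAM replicate 1). Over the other named genes 705 kept both, 51 lost the call, 24 gained one and 12 reversed, none of them called. These were, with their log2 fold changes when 1 library was left out, Slco1a4 (-0.12 to 0.53) and Cyp2d9 (-0.12 to 0.25, and -2.4e-05 in limma-voom) in STAM against chow, Ces2a (-0.088 to 0.19) and Cyp4a10 (-0.32 to 0.096) in STAM + Atglistatin against STAM, and Cyp8b1 (-0.23 to 0.077) in STAM + Atglistatin against chow. Members passing in STAM against chow numbered 2, and 1 with only the 2 groups fitted or, leaving out libraries, 1 to 2. They numbered 3 (with Cyp3a25) with library totals, no filter and limma-voom, and in DESeq2 and without chow replicate 8 the 2 were Por and Cyp3a25. For STAM + Atglistatin against STAM 0 passed, with 1 under no filter and 1 with only the 2 groups fitted.

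STAM against chow gave 499 passing genes in all (247 higher, 252 lower). Leaving out 1 library gave 291 to 724 (140 to 350 higher, 151 to 374 lower), no filter gave 373 higher, and limma-voom gave 405 lower. The comparison of STAM + Atglistatin with STAM had 226 passing (132 higher, 94 lower). Leaving out 1 library gave 131 to 191 (73 to 119 higher, 52 to 80 lower), no filter gave 392 (203 higher, 189 lower), and the 2 groups alone gave 145 lower. That of STAM + Atglistatin with chow had 516 (266 higher, 250 lower). Leaving out 1 library gave 309 to 757 (164 to 376 higher, 132 to 381 lower), and no filter gave 379 lower. Library totals without TMM gave 347 higher and 205 lower in STAM against chow, and 359 higher and 184 lower in STAM + Atglistatin against chow, and moved the median of all genes to 0.09 and 0.08. The causes were not tested.

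Summing Cyp3a41a with Cyp3a41b, or these with Cyp3a16 and Cyp3a44, gave no value, since the sums were 0 or the few counts of Cyp3a44 alone. No paired analysis was possible because the groups share no replicate numbers. The tested member with the fewest counts was Cyp3a59, at 33 to 290 per library.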
